A study of Arabidopsis thaliana with 20 samples.

Results

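The genes described here are those that stood higher in the mutant among array features paired with exactly 1 gene. They were chosen by their measured difference: 8 or more values above 0 in each group and a mean normalised log2 value higher in hcf145 than in WT by at least log2 of 1.5, that is 1.5-fold. Of 3439 features, 692 had 1 gene, 627 of these had enough values, and 111 reached the threshold. A total of 11 genes were to be left out by name. Of these, 10 had reached the threshold, and the other, CCB3, had only 5 values above 0 in WT and 6 in hcf145. The remaining 101 genes are the members. Because the difference between the groups chose them, that difference is given below as a description and is not tested.

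The study measured total RNA of Arabidopsis thaliana, ecotype Wassilevskija, on 10 arrays of wild-type plants (WT) and 10 arrays of the mutant hcf145. Titles and descriptions name the mutant hcf145, whereas the source names call it gun5; the titles are followed here. No treatment, age or tissue is given in the labels, nor whether arrays came from separate plants. The replicate spread may therefore be technical.

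Photosystem I is the thylakoid complex that takes electrons from plastocyanin and passes them to ferredoxin. Its reaction centre is encoded in the plastid genome, while most smaller subunits and nearly all factors for plastid RNA processing, translation and assembly are encoded in the nucleus. In high chlorophyll fluorescence (hcf) mutants, absorbed light is re-emitted because electron transport is blocked, and HCF145 is known as a nuclear-encoded plastid protein that keeps the transcript of the photosystem I reaction centre stable. The plastid and the nucleus exchange signals, so nuclear transcripts can differ when a plastid complex is missing.

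Adjacent array numbers (1 with 2, 3 with 4, and so on) deviated together from the group mean: 20 of 20 arrays were nearest to the array of the adjacent number. The 10 arrays of a group are therefore treated as 5 pairs where an error is given. Differences by array number set the hcf145 average of 2 numbers against the WT average of the same 2. The labels do not say that a number links the groups, so these differences show spread only, and another matching would give other values. Standard errors below come from limma fitted to the averages of adjacent arrays, and intensities are the deposited values. The deposited intensities summed to 3319 to 3640 per array, and the median feature lay lower in hcf145 (0.311 to 0.385 across arrays) than on most WT arrays (0.339 to 0.49). HCF145 (AT5G08720) was the sole gene of no feature, so the mutated gene was not checked. None of 24 markers of seed, root, flower, pollen, guard cells, leaf, senescence or stress was listed on any feature, so the tissue could not be checked. In bulk RNA, fewer cells of a type and less RNA per cell cannot be told apart.

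The 101 members were mostly dim genes with moderate differences. Their mean WT intensity ran from 0.0692 to 16.03 with a median of 0.315, below the 0.505 of the other 526 single-gene features that had enough values. In hcf145 the members ran from 0.0884 to 33.4 with a median of 0.478, and the other single-gene features had a median of 0.368. The normalised difference ran from 0.60 to 2.30 on the log2 scale, with a median of 0.91, against -0.05 for all 3287 features tested. Of the members, 68 lay under 1, which is 2-fold, 28 from 1 to under 1.5, 4 from 1.5 to under 2, and AT2G01400 alone above 2. The members' median on an array lay between -2.11 and -1.55 on the normalised log2 scale in WT and between -1.21 and -0.82 in hcf145, with no overlap. In the deposited values it ran from 0.208 to 0.416 in WT and from 0.348 to 0.574 in hcf145, and the groups overlapped.

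**Figure D1:**
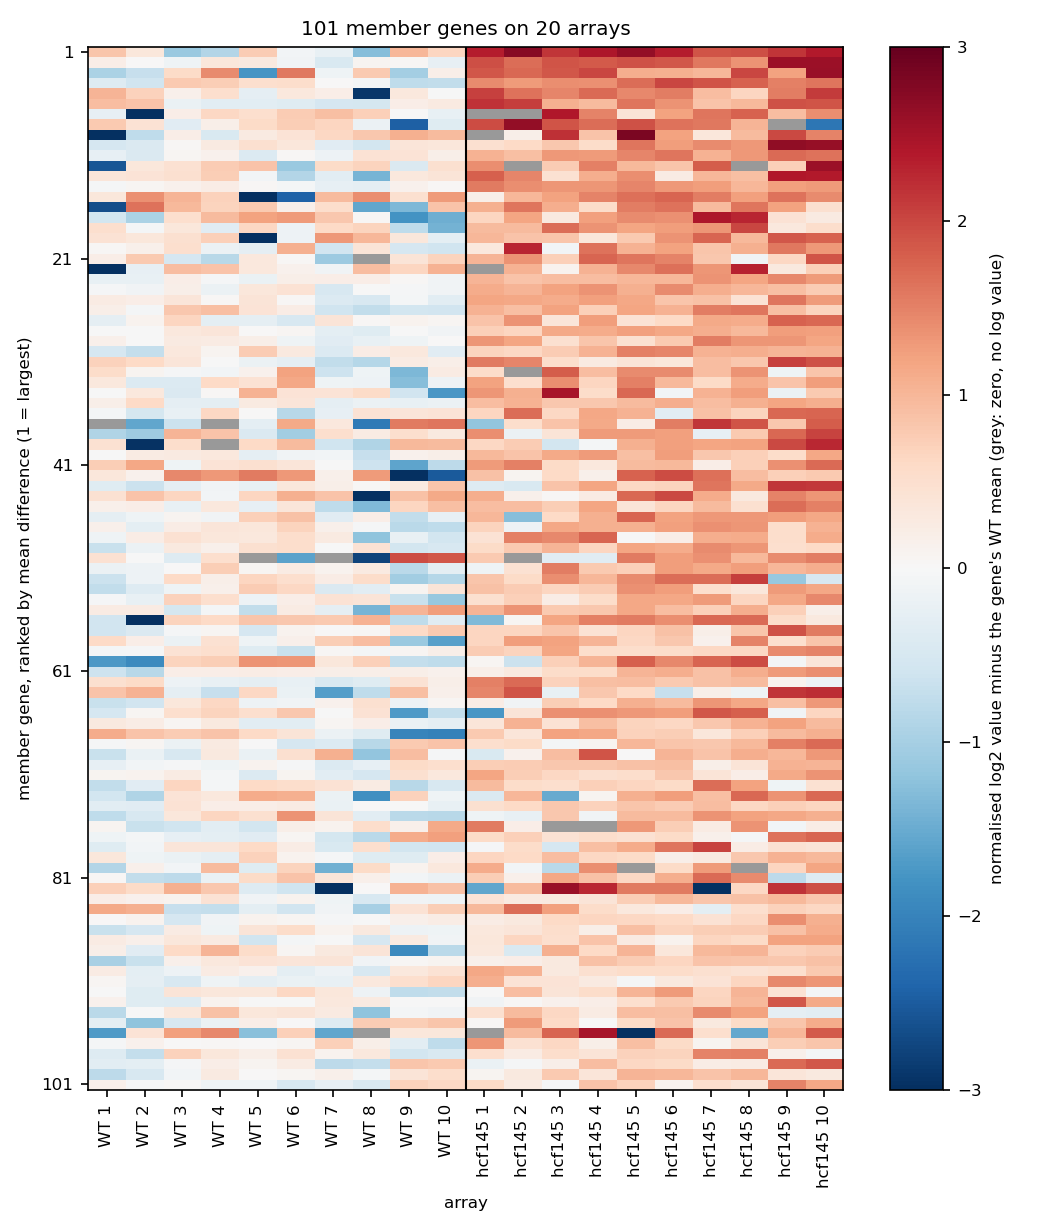
Each row is 1 of the 101 members, ranked by its mean difference, and each column 1 of the 20 arrays. Colour gives the normalised log2 value minus the gene's WT mean, with values beyond 3 in either direction drawn as 3, and grey marks zeros, which have no log value. The rows are red over most hcf145 arrays, while single dark blue cells mark arrays on which a dim gene dropped, such as AT5G47030 on WT array 8 at -6.10 on the normalised log2 scale.

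By limma over the 20 arrays, 71 of the 101 members were called higher at an adjusted p under 0.05, where 13.1% of all features tested were called higher. With adjacent arrays averaged, 22 members were called, where 3.68% of all features were called higher. Every hcf145 array lay above every WT array for 16 members (2.37% of all features), and every hcf145 average lay above every WT average for 29 of the 99 members with all averages (4.76% of all features). The hcf145 average was the higher in all 5 pairs for 67 of 99 members, and so it was for 16.2% of features overall. The rule used the same contrast, so these counts only describe how even the members were, and nothing else is read from them.

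Function and compartment can be given for only a few members. The reference tables name 9 of the 101, namely CCS, CBL, mTERF9, FBL17, NDX, TPP2, CSLA01, PRA1.B3 and DI21. The other 92 carry a locus number without a name, and no role is assigned to them here. Of the 627 single-gene features with enough values, 89 had a name. Keywords in these names placed 5 in photosynthesis and chlorophyll (PIFI, PSBY, LHB1B2, PRK and PSBW), and none of the 5 reached the threshold. The keywords missed others, such as the photosystem I subunit PSAN (-0.96), and plastid genes such as PRPL34 were among those left out by name. No absence of plastid genes is therefore read from this class. Metabolic enzymes held 3 members of 17 (CSLA01, CCS and CBL), protein folding and turnover 2 of 6 (CCS and TPP2), and transcription and chromatin 1 of 6 (NDX). These denominators include genes that reached the threshold and were left out by name: GLDH, CKS and NADP-MDH (AT5G58330) among the enzymes, and AGL54 in transcription. Members made up 9 of the 89 named genes and 101 of all 627. The 10 genes left out by name stay in the 627, and some of them in the 89, so these shares are not compared. Keywords place some genes loosely, and the classes are small. No named member was called with adjacent arrays averaged.

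Of the named members, CCS, CBL and mTERF9 are known from the plastid. CCS (AT1G12520) is the copper chaperone that loads copper onto copper/zinc superoxide dismutase and acts in plastid and cytosol. Its intensity ran from 0.0663 to 0.478 on the WT arrays (median 0.302) and from 0.0534 to 0.794 on the hcf145 arrays (median 0.4698). The groups overlapped broadly, and hcf145 had both the lowest and the highest array. The difference was 0.82 ± 0.50 on the log2 scale (SE), with arrays 1 and 2 going the other way at -0.45. CBL (AT3G57050) is cystathionine beta-lyase, the plastid enzyme that makes homocysteine on the way to methionine. It ran from 0 to 0.326 on the WT arrays (median 0.202) and from 0.0601 to 0.5684 on the hcf145 arrays (median 0.248). WT array 4 was 0 and carried no log, so the WT side of arrays 3 and 4 is array 3 alone. The difference of 0.97 ± 0.52 (2.12 with that zero at the lowest positive value of its array) ranged over the pairs from -0.84 on arrays 3 and 4 to 1.95 on arrays 1 and 2. For CBL the pairs spanned more than the mean difference itself. mTERF9 (AT5G55580) belongs to a family named for mitochondrial transcription termination factors and is a plastid RNA-binding protein. It ran from 0.809 to 1.69 on the WT arrays (median 0.974) and from 0.911 to 3.55 on the hcf145 arrays (median 1.73). Its difference was 0.83 ± 0.31, with 1.32 on arrays 7 and 8 and -0.32 on arrays 9 and 10, so 4 of the 5 pairs were higher in hcf145. Without arrays 9 and 10 it was 1.08.

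FBL17 and NDX act in the nucleus. FBL17 (AT3G54650) is an F-box protein that marks inhibitors of cyclin-dependent kinases for degradation and so lets the cell cycle proceed. Its intensity ran from 0.0215 to 0.258 on the WT arrays (median 0.158) and from 0 to 0.642 on the hcf145 arrays (median 0.316). FBL17 was higher in hcf145 in 4 pairs, by up to 1.86 on arrays 3 and 4, and lower on arrays 9 and 10, at -0.77. The hcf145 side of that last value is array 10 alone, since array 9 was 0. Its mean difference was 1.35 ± 0.75, and 0.54 with the zero set to the lowest positive value of its array, which is under the threshold. NDX (AT4G03090), the nodulin homeobox protein, binds single-stranded DNA at the flowering repressor gene FLC and limits its antisense transcript. NDX ran from 0.3197 to 0.9704 on the WT arrays (median 0.683) and from 0.483 to 1.61 on the hcf145 arrays (median 0.7095), so the deposited medians nearly met. Its difference was 0.61 ± 0.32, from -0.05 on arrays 3 and 4 to 1.29 on arrays 7 and 8.

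TPP2, CSLA01 and PRA1.B3 belong to protein turnover and the endomembrane system. TPP2 (AT4G20850), tripeptidyl peptidase II, is a very large peptidase that trims the peptides left by the proteasome. It ran from 0.131 to 0.5196 on the WT arrays (median 0.306) and from 0.216 to 0.598 on the hcf145 arrays (median 0.366). All 5 pairs were higher in hcf145, but the groups overlapped and the difference lay between 0.18 on arrays 9 and 10 and 1.39 on arrays 1 and 2, with a mean of 0.62 ± 0.29. CSLA01 (AT4G16590) is a cellulose synthase-like protein of the family that makes the mannan backbone in the Golgi. It ran from 0.499 to 1.15 on the WT arrays (median 0.926) and from 0.873 to 1.53 on the hcf145 arrays (median 1.29). It was higher in all 5 pairs, between 0.31 and 0.99, with a mean of 0.63 ± 0.27, and the groups overlapped over part of their ranges. PRA1.B3 (AT5G05380) is a prenylated Rab acceptor of the membranes that carry vesicles. It ran from 0.0491 to 0.4303 on the WT arrays (median 0.272) and from 0.118 to 0.374 on the hcf145 arrays (median 0.271). The deposited medians were nearly equal. The normalised difference of 0.64 ± 0.38 came mostly from arrays 9 and 10, at 2.08, against 0.02 on arrays 1 and 2. Leaving arrays 9 and 10 out gave 0.27.

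DI21 (AT4G15910), a transcript named for its induction by drought, was the only named member whose groups did not overlap after normalisation. It ran from 1.07 to 2.38 on the WT arrays (median 1.67) and from 2.09 to 4.64 on the hcf145 arrays (median 2.51). In the deposited values the groups overlapped narrowly. On the normalised log2 scale they lay at 0.01 to 1.18 in WT and 1.19 to 2.16 in hcf145. The difference was 0.84 ± 0.25, between 0.40 on arrays 3 and 4 and 1.33 on arrays 9 and 10.

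Among all members, 16 had every hcf145 array above every WT array after normalisation. For 11 of them this held in the deposited values too, where it held for 1.73% of all features, zeros counted as values. AT2G01400, the gene with the largest difference, ran from 0.0459 to 0.255 on the WT arrays (median 0.152) and from 0.381 to 0.652 on the hcf145 arrays (median 0.468), and its highest WT array lay well under its lowest hcf145 array. Its 5 pairs differed by 1.45 on arrays 9 and 10 to 3.28 on arrays 3 and 4. AT3G54930 ran from 0.2903 to 0.577 on the WT arrays (median 0.468) and from 0.9904 to 2.62 on the hcf145 arrays (median 1.33), a gap wider than the WT range itself. For AT3G54930 the difference of 1.92 ± 0.23 was 1.69 without arrays 9 and 10. AT4G16410 ran from 0.749 to 2.46 on the WT arrays (median 1.44) and from 3.53 to 5.12 on the hcf145 arrays (median 4.21). In relative terms its WT arrays spread further than its hcf145 arrays.

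A further 4 of these genes were at intensities of about 1 or above in WT. AT2G33180 ran from 1.01 to 1.76 on the WT arrays (median 1.57) and from 1.89 to 8.17 on the hcf145 arrays (median 3.12), a bare separation with a wide upper end. AT1G54500 ran from 0.909 to 1.31 on the WT arrays (median 1.101) and from 1.86 to 3.08 on the hcf145 arrays (median 2.09). AT3G52070 ran from 2.05 to 3.23 on the WT arrays (median 2.63) and from 4.36 to 6.102 on the hcf145 arrays (median 5.48). Both had compact groups. AT3G09850 was the brightest member and ran from 12.3 to 19.6 on the WT arrays (median 16.3) and from 28.6 to 43.3 on the hcf145 arrays (median 31.5). Its difference was 0.99 ± 0.21 and was 1.06 in the values as deposited, so scaling moved it little.

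The rest of the separated members were of middle brightness. AT2G04540 ran from 0.461 to 0.771 on the WT arrays (median 0.567) and from 0.955 to 1.73 on the hcf145 arrays (median 1.203), and AT4G24750 from 0.5504 to 0.803 on the WT arrays (median 0.683) and from 1.26 to 1.82 on the hcf145 arrays (median 1.46). These had SEs of 0.22 and 0.19 on differences of 1.32 and 1.31. AT2G26110 ran from 0.516 to 0.938 on the WT arrays (median 0.713) and from 1.08 to 1.58 on the hcf145 arrays (median 1.33) and AT4G00170 from 0.458 to 0.884 on the WT arrays (median 0.674) and from 0.909 to 1.42 on the hcf145 arrays (median 1.17), with differences of 1.09 ± 0.20 and 0.96 ± 0.21. For AT5G06990, AT4G24840, AT4G24090 and AT3G58610, as for DI21, the groups separated only after normalisation. AT4G24840, for example, lay at -2.20 to -1.60 in WT and -1.37 to -0.33 in hcf145 on the normalised scale, while its deposited intensities ran from 0.222 to 0.407 on the WT arrays (median 0.329) and from 0.316 to 0.793 on the hcf145 arrays (median 0.595) and overlapped.

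**Figure D2:**
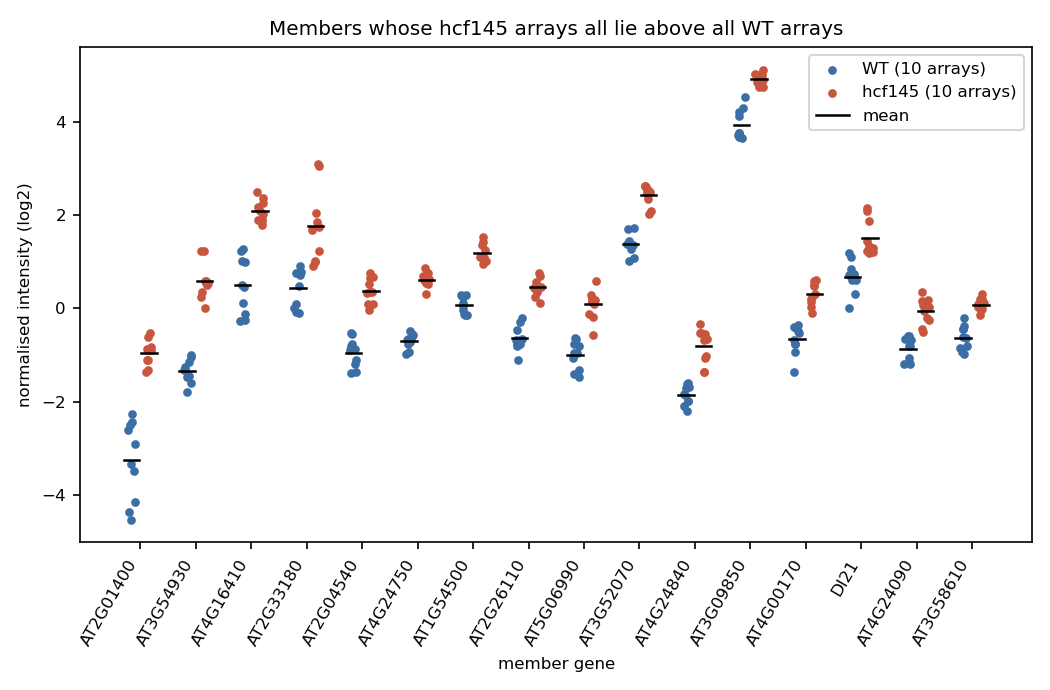
Normalised intensity (log2) of the 16 members whose hcf145 arrays all lay above all WT arrays. Each point is 1 array, 10 per group, and each short line a group mean. AT3G09850 stands highest and AT2G01400 lowest, and the gap is widest for AT3G54930 and AT2G01400 and narrowest for DI21 and AT2G33180.

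The largest differences were not all of this kind. Of the 15 members with the largest difference, 6 had groups that did not overlap (2.37% of all features), 9 were called with adjacent arrays averaged (3.68% of all features were called higher), and 8 had a WT median of at most 0.2. The same difference ranked them, so nothing is read from these counts. AT1G05860 had a difference of 1.64 ± 0.33 at intensities that ran from 0.0226 to 0.197 on the WT arrays (median 0.0466) and from 0.0777 to 0.226 on the hcf145 arrays (median 0.123). AT1G51350 was brighter and ran from 1.88 to 4.77 on the WT arrays (median 2.26) and from 4.71 to 11.1 on the hcf145 arrays (median 7.02), with a difference of 1.48 ± 0.33 and an overlap of 1 narrow stretch. AT5G47030 had a difference of 1.501 ± 0.38 and ran from 0.0155 to 0.254 on the WT arrays (median 0.149) and from 0.169 to 0.435 on the hcf145 arrays (median 0.288). Its lowest WT array lay far below the others.

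Of the 15, 4 had zeros in hcf145 although their mean log2 level was higher there; a zero carries no log value and is not in that mean. AT5G19150 had 2 zeros in hcf145 and ran from 0.00873 to 0.1897 on the WT arrays (median 0.115) and from 0 to 0.314 on the hcf145 arrays (median 0.157). AT3G08000 had 2 and ran from 0.0125 to 0.147 on the WT arrays (median 0.0769) and from 0 to 0.257 on the hcf145 arrays (median 0.0814), so its deposited medians were nearly the same. AT5G53620 had 1 and ran from 0.01103 to 0.129 on the WT arrays (median 0.103) and from 0 to 0.364 on the hcf145 arrays (median 0.108), with the medians close as well. FBL17, above, also had 1. The last 3 of the 15 had no zero. AT4G02040 ran from 0.0717 to 0.303 on the WT arrays (median 0.204) and from 0.167 to 0.821 on the hcf145 arrays (median 0.344), and AT2G38500 ran from 0.00707 to 0.274 on the WT arrays (median 0.178) and from 0.0862 to 0.262 on the hcf145 arrays (median 0.205). For AT2G38500 the difference was 5.47 on arrays 5 and 6 and at most 0.66 on any other pair, so its mean of 1.31 ± 0.81 went to 0.28 without arrays 5 and 6. AT4G24750 is given above.

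Several members were called with adjacent arrays averaged although single arrays overlapped. AT4G29750 ran from 0.0807 to 0.355 on the WT arrays (median 0.161) and from 0.0931 to 0.592 on the hcf145 arrays (median 0.265), with a difference of 1.12 ± 0.24. AT4G26370 ran from 0.303 to 0.605 on the WT arrays (median 0.344) and from 0.347 to 1.12 on the hcf145 arrays (median 0.703), with 1.06 ± 0.26. In both, the hcf145 median lay well above the WT median while the lowest hcf145 arrays fell inside the WT range. AT5G24690 ran from 0.184 to 0.525 on the WT arrays (median 0.294) and from 0.354 to 0.6603 on the hcf145 arrays (median 0.4933), and its difference was 1.03 ± 0.26. AT5G48110 ran from 0.0514 to 0.375 on the WT arrays (median 0.1398) and from 0.159 to 0.328 on the hcf145 arrays (median 0.246), and its difference was 1.01 ± 0.27. For AT5G48110 the highest single array was a WT array. AT5G52660 ran from 0.0146 to 0.215 on the WT arrays (median 0.103) and from 0.0617 to 0.179 on the hcf145 arrays (median 0.115), with 1.17 ± 0.31. Its deposited medians were close, and its highest array was again in WT.

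Among bright members not yet described, AT1G17160 ran from 1.65 to 3.38 on the WT arrays (median 2.94) and from 3.15 to 6.399 on the hcf145 arrays (median 4.74), with a difference of 0.83 ± 0.28, and AT4G39690 ran from 1.65 to 2.71 on the WT arrays (median 2.17) and from 2.604 to 5.65 on the hcf145 arrays (median 3.17), with 0.65 ± 0.23. Both were higher in all 5 pairs and had averages that did not overlap. AT3G57630 ran from 0.995 to 2.71 on the WT arrays (median 1.82) and from 1.83 to 6.52 on the hcf145 arrays (median 2.91), with 1.03 ± 0.37. AT4G29890 ran from 1.05 to 1.903 on the WT arrays (median 1.32) and from 1.45 to 2.92 on the hcf145 arrays (median 2.15), with 0.75 ± 0.24. These were also higher in all 5 pairs, but their averages overlapped. AT1G11800 ran from 0.6396 to 2.38 on the WT arrays (median 0.962) and from 0.929 to 3.42 on the hcf145 arrays (median 1.26), with 0.67 ± 0.38, and AT2G36480 ran from 0.208 to 2.14 on the WT arrays (median 1.33) and from 1.17 to 2.11 on the hcf145 arrays (median 1.59), with 0.80 ± 0.49. The ranges of AT1G11800 and AT2G36480 overlapped for the most part. AT1G11800 was nevertheless higher in hcf145 in all 5 pairs, by 0.51 to 0.75, and its arrays 9 and 10 were the highest in both groups. For AT2G36480 the pairs ran from -0.40 on arrays 1 and 2 to 3.01 on arrays 9 and 10.

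Dim members varied more between arrays than bright ones. The 14 members with a mean WT intensity of at least 1 had differences of 0.65 to 1.59 (median 0.91) and a median WT SD of 0.39 on the log2 scale, and 9 of the 14 had averages that did not overlap. The 32 members under 0.2 had differences of 0.62 to 2.30 (median 1.003) with a median WT SD of 0.89, and 7 of the 30 with all averages had averages that did not overlap. Among all features the share was 4.76%. In all, 88 members had no zero, and the other 13 had 7 zeros in WT and 14 in hcf145. With zeros set to the lowest positive value of their array, AT4G22650 and AT1G70350, each with 2 zeros in hcf145, were lower in hcf145 (-0.36 and -0.050), while AT1G42960, with 2 zeros in WT, went from 0.97 to 3.20. Under this setting AT5G62840 went from 1.11 to 2.32, AT4G16060 from 0.92 to 2.64, AT4G02800 from 0.62 to 1.79 and AT5G19150 from 1.40 to 0.87, beside FBL17 and CBL above. AT4G22650 ran from 0.08998 to 0.2299 on the WT arrays (median 0.139) and from 0 to 0.326 on the hcf145 arrays (median 0.126). For AT1G70350 the intensities ran from 0.0321 to 0.1795 on the WT arrays (median 0.0902) and from 0 to 0.169 on the hcf145 arrays (median 0.0993). Both groups of both genes overlapped, with near-equal deposited medians.

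In 5 members the median deposited intensity was not higher in hcf145, although the mean normalised log2 value was. They were AT5G06410, AT1G44920, AT5G66090, AT4G22650 and PRA1.B3. These measures differ in scale as well as in median against mean. In the deposited values the median log2 difference of all features was itself -0.32, against -0.05 after normalisation. A deposited median that is not higher therefore does not show that the normalised medians were equal. AT5G06410 went furthest. Its intensity ran from 0.00497 to 0.6098 on the WT arrays (median 0.378) and from 0.154 to 0.624 on the hcf145 arrays (median 0.285). The WT low came from arrays 9 and 10, where the normalised difference was 4.50.

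The pairs of arrays did not contribute evenly. The members' median difference was 0.91 for arrays 1 and 2, 0.63 for 3 and 4, 0.73 for 5 and 6, 1.08 for 7 and 8, and 1.14 for 9 and 10. The largest of a member's 5 differences fell on arrays 9 and 10 for 36 members, and the smallest on arrays 3 and 4 for 38. All features tested had medians between -0.09 and 0.02 on the same pairs. Of the members, 67 were higher in hcf145 in 5 pairs, as were 16.2% of all features with 5 pairs, 27 in 4 and 7 in 3. AT5G19150 and AT4G22650 had only 4 pairs measured and were higher in 4 and 3 of them.

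Without arrays 9 and 10 of both groups, 80 members were still at or above the threshold and 21 were not, but none was below 0. AT5G06410 went from 0.95 to 0.06, AT2G36480 from 0.80 to 0.24, AT5G11550 from 0.96 to 0.51, and PRA1.B3 from 0.64 to 0.27. In the other direction, AT4G16060 went from 0.92 to 1.40 and AT1G42960 from 0.97 to 1.44. On the 8 remaining arrays a group, 26 members had groups that did not overlap, and 4.29% of all features did so.

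**Figure D3:**
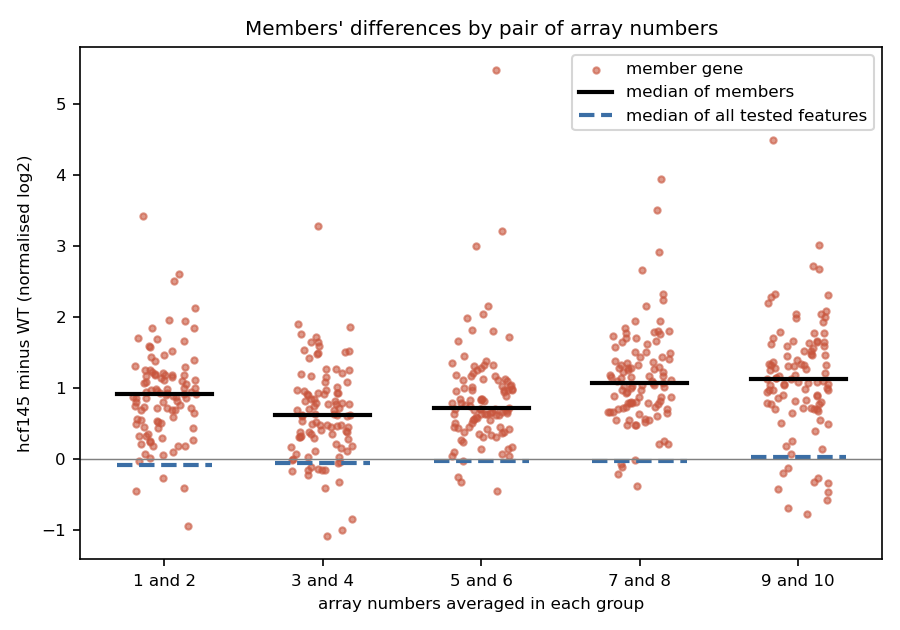
Difference between hcf145 and WT on the normalised log2 scale for the averages of adjacent array numbers. Each point is a member, the solid line the members' median, and the dashed line the median of all features tested. The members' median is lowest for arrays 3 and 4, at 0.63, and highest for arrays 9 and 10, at 1.14, and points lie below 0 in every pair.

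A total of 12 member genes were listed on a further feature of the same arrays, and 11 of these features had enough values. The further feature was higher in hcf145 for 2 and lower for 9, and none reached the threshold. All but 1 of the 12 list 2 to 4 genes, so their signal need not come from the member. The exception was AT2G25870, which was the sole gene of both its features. On the feature that made it a member it ran from 0.197 to 0.4303 on the WT arrays (median 0.3004) and from 0.177 to 1.18 on the hcf145 arrays (median 0.452), a difference of 0.95 ± 0.41. On its other feature it ran from 0.289 to 0.986 on the WT arrays (median 0.806) and from 0.112 to 0.5398 on the hcf145 arrays (median 0.366), a difference of -0.89 ± 0.35. Both features had 10 values per group, and the directions were opposite. The direction of AT2G25870 is thus not settled by these arrays.

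AT5G56070 had the largest contrast among features shared with other genes. Its own feature ran from 0.2304 to 1.01 on the WT arrays (median 0.7001) and from 0.5605 to 1.58 on the hcf145 arrays (median 1.04), with a difference of 0.88 ± 0.31, whereas the shared feature ran from 1.56 to 3.36 on the WT arrays (median 2.49) and from 0.424 to 1.22 on the hcf145 arrays (median 0.974), with -1.27 ± 0.29. On that shared feature the groups did not overlap. AT2G43180 stood at 0.78 on its own feature and -0.64 on the shared one, and AT2G46910 at 0.63 and -0.62. The difference of mTERF9 was -0.18 ± 0.29 on the feature it shares, and that of PRA1.B3 was -0.19 ± 0.74. AT1G24530 (0.93 and 0.45) and AT5G06990 (1.09 and 0.35) were higher on both.

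**Figure D4:**
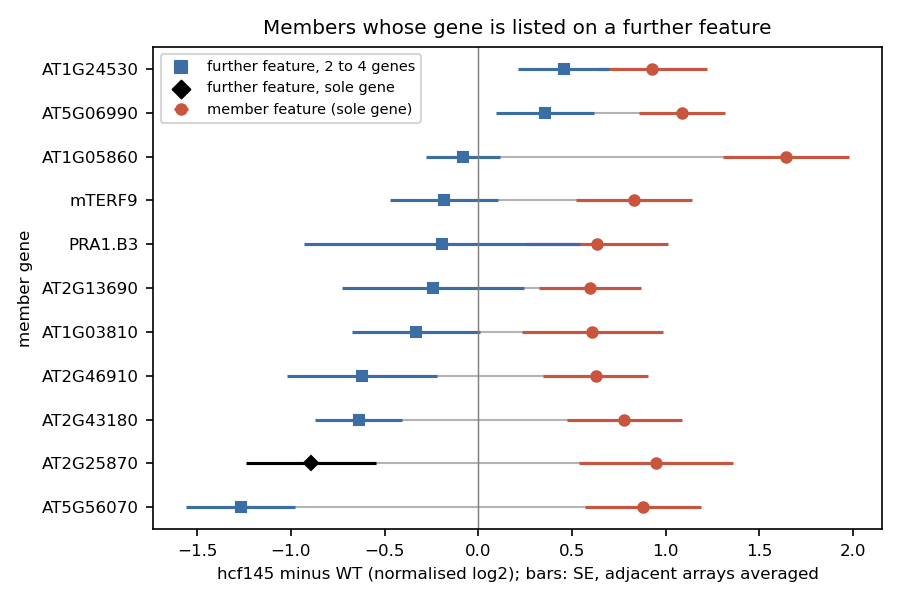
Difference between hcf145 and WT for 11 members (circles) and for the further feature that lists the same gene (squares where it lists 2 to 4 genes, a diamond where it lists that gene alone), with SE from the averages of adjacent arrays. Of the 11 further features, 9 lie below 0, and the diamond of AT2G25870 is at -0.89.

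By locus name, 31 of the 101 members lie on chromosome 4, 20 on chromosome 5, 18 on chromosome 1, and 16 each on chromosomes 2 and 3. Chromosome 4 held 115 of the single-gene features with enough values, and 27% of these were members, against 13.7% on the other chromosomes (11.8% to 16%). The opposite held for features at least 1.5-fold lower in hcf145, which made up 12.2% on chromosome 4 and 23.5% elsewhere. The members' shares lack the genes left out by name, among them AT-HF (AT4G26900), AT4G14050 and AT4G33760 on chromosome 4. Nothing was left out of the lower shares. The median difference of all single-gene features with enough values was 0.13 on chromosome 4 and -0.07 elsewhere, and the chromosome 4 median was the higher in all 5 pairs of arrays. In the values as deposited the medians were -0.12 and -0.35. In locus order, the 29 features from AT4G14330 to AT4G22190 held 10 members, and the last 29, from AT4G30150 on, held 5. Whether chromosome 4 differs from the others was not tested.

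**Figure D5:**
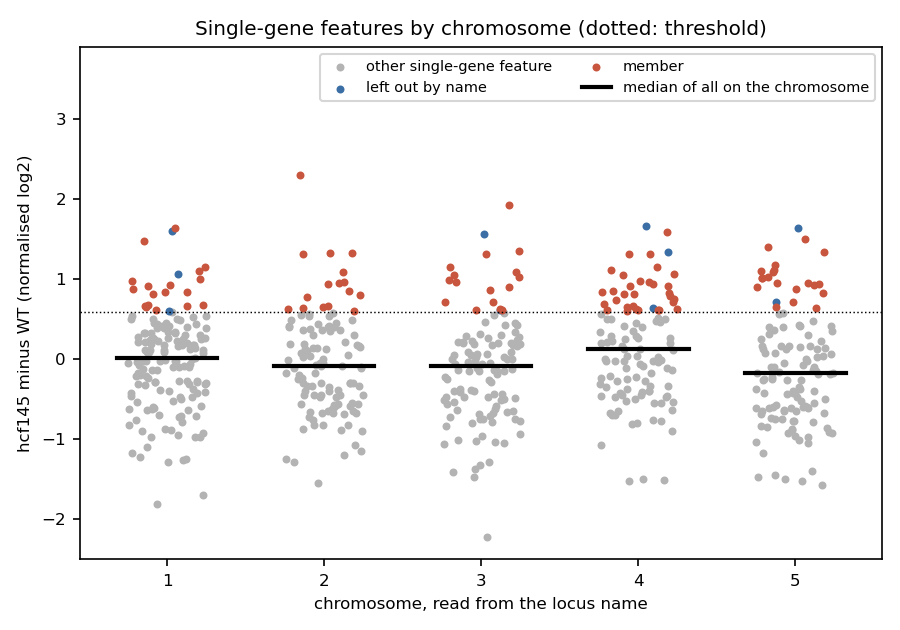
Difference between hcf145 and WT on the normalised log2 scale for the single-gene features with enough values, by the chromosome in the locus name. Points are members, genes left out by name and the others, the bar is the median of all on that chromosome, and the dotted line is the threshold. Chromosome 4 has the highest median, 0.13, and chromosome 5 the lowest, -0.18.

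Neighbouring members were few. Among protein-coding genes of assembly TAIR10.1, AT5G55570 and mTERF9 are next to each other, with differences of 0.71 and 0.83. AT3G56250 and AT3G56290 have 2 genes between them (1.08 and 0.87), and AT4G20820 and TPP2 have 3 (1.15 and 0.62). No other members lay within 5 positions of each other.

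At the threshold, the members just inside were AT2G13690 (0.60), AT4G08280 (0.60) and AT1G03810 (0.61), and the single-gene features just outside were AT1G76450, AT3G53580 and AT5G19210, all at 0.58. AT2G13690 had mean intensities of 0.353 ± 0.0506 in WT and 0.460 ± 0.180 in hcf145 (SD, n = 10 arrays each), and AT1G76450 of 0.150 ± 0.0731 and 0.207 ± 0.109. Adjacent arrays were not independent, so these SDs describe the spread between arrays and are not errors. In the values as deposited, where the median of all features lay at -0.32 instead of -0.05, 56 of the 101 members reached the threshold and the members' median was 0.61.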

How the data were processed

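The data were 20 arrays, 10 WT and 10 hcf145, grouped by sample title. Values deposited by the authors are linear intensities, as their range shows: none is below 0, and the maximum is 100. Every hcf145 array reached 100, while the maximum on the WT arrays was 70.8 to 90.4. Comparisons in the deposited values carry this difference between the groups, and its source was not tested. Per the labels, the molecule was total RNA; the sources used here give no array kind, quantification, scaling or genome build.

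Genes came from the platform's annotation table (692 features with 1 gene, 870 with several, 1877 with none), and 691 of the 692 were matched to the RefSeq table of assembly TAIR10.1, used for names and gene neighbours only. Zeros were set missing, features with under 5 values in either group were left out (152, leaving 3287), and log2 values were quantile normalised over the 20 arrays. All 3287 features were fitted with limma 3.58.1 in R 4.3.3 (group as the only term, two-sided, Benjamini-Hochberg adjustment over all features, threshold 0.05), which was tested on simulated data, and again on averages of adjacent arrays. Differences are mean normalised log2 values, hcf145 minus WT; zeros and dim values make them less certain. The number of arrays limits the precision.

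The members and lists were chosen with earlier results of these data known. Named genes are the 15 largest differences, the members the reference tables name, those at the threshold, those with a further feature, those with 1 array far from its group, and others chosen after their values were seen. No sequence is shown. Function classes came from keywords in gene names and synonyms. The alternatives tried were scaling, zeros, dim features, averaged or blocked arrays and arrays left out. Figures were drawn with matplotlib 3.10.9.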

Additional observations from a re-analysis of the deposited data

Results flagged for a closer look

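In 16 of 202 groups of arrays examined (WT or hcf145 of a member), belonging to 14 members, 1 array stood well apart from the rest of its group, and in all 16 it was the lowest. The cut-off used flags about 5% of groups by chance if arrays are independent and values normally distributed, and adjacent arrays here were not independent. A low WT array also raises the difference by which the members were chosen. The 5% is therefore no baseline for these groups, and no excess is read from the count. Values are on the normalised log2 scale. In WT they were AT5G47030 (array 8, at -6.10, with its group's other arrays between -3.45 and -2.15), AT5G19150 (array 2, at -7.00, with its group's other arrays between -4.03 and -2.88), FBL17 (array 9, at -5.64, with its group's other arrays between -3.55 and -2.41), AT5G53620 (array 1, at -7.26, with its group's other arrays between -4.87 and -3.05), AT4G20820 (array 5, at -6.90, with its group's other arrays between -3.06 and -1.48) and AT5G66090 (array 1, at -7.86, with its group's other arrays between -3.62 and -2.33). The other WT groups were CBL (array 2, at -5.96, with its group's other arrays between -3.89 and -2.0), AT5G49590 (array 8, at -10.22, with its group's other arrays between -3.82 and -2.60), AT3G56290 (array 2, at -5.47, with its group's other arrays between -3.17 and -1.36), AT2G29180 (array 7, at -8.07, with its group's other arrays between -4.53 and -2.86) and AT4G39690 (array 3, at 0.62, with its group's other arrays between 1.03 and 1.34). In hcf145 they were FBL17 (array 10, at -5.37, with its group's other arrays between -2.17 and -0.56), AT2G38500 (array 1, at -3.32, with its group's other arrays between -2.49 and -1.75), AT4G22190 (array 2, at -3.99, with its group's other arrays between -2.10 and -0.96), AT2G29180 (array 7, at -9.44, with its group's other arrays between -5.49 and -1.34) and PRA1.B3 (array 2, at -2.88, with its group's other arrays between -2.09 and -1.34). The deposited intensity of AT5G49590 on WT array 8 was 0.000255, against a WT median of 0.143, and AT2G29180 was low on array 7 in both groups. AT4G39690 was the only one with all intensities above 1. What set these arrays apart was not tested.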

How the results depend on the processing

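The number of genes that met the rule was 101, and it lay between 92 and 108 with each array left out, between 97 and 111 with each pair of array numbers left out, and at 99 to 121 with median centring, averaged arrays, zeros at the lowest positive value or normalisation over all features before the filter (99; added after seeing the data). It was 57 in the values as deposited, 71 without the dimmest 25% of features, 88 with no missing value, and 33 at a difference of at least 1. The members' median difference, 0.91, lay between 0.82 and 0.96 under these settings except the values as deposited (0.61). The threshold of 1 was applied to the count only, and no median was taken for it. Features called by limma were 962 (44.6% higher), 820 to 983 with each array left out, 694 to 1077 with each pair of numbers left out, and 1179 as deposited (20.7% higher). They were 251 with adjacent arrays averaged, 429 with adjacent arrays as a random block, and 317 averaged without arrays 9 and 10 (added after seeing the data). Members called higher were 71 and, in the same order, 65 to 74, 52 to 70, 39, 22, 39 and 24. Of all 3287 features, those called higher were 429 and, in that order, 373 to 443, 319 to 462, 244, 121, 216 and 141. Arrays of the same number correlated across groups by 0.07 to 0.37 in their deviations, under 0.1 for numbers 3 and 4. Every one of these correlations was above 0. The labels do not say that a number links the groups, so number was left out of the main fits. Standard errors given above therefore include any deviation that arrays of a number share across groups. The differences by array number are a description of spread. With number as a replicate block, 1246 features were called, 577 of them higher, and 83 members were called higher. With averaged arrays and the replicate block, 511 features were called, 255 of them higher, and 48 members were called higher. Over single members and settings, 3583 differences moved by less than 1 SD between arrays, 8 moved by more and 2 changed sign. The 2 were AT4G22650 (-0.36) and AT1G70350 (-0.050) with zeros at the lowest positive value. Under that setting 3 members, FBL17 at 0.54 among them, were under the threshold. The SD is the gene's own and is wide for dim genes, and many settings leave out only 1 array, so the standard is loose. AT5G06410, at 0.95 and at 0.06 without arrays 9 and 10, counts as moved by less than 1 SD. The causes of these shifts were not tested. Signal over background is not given for these arrays, so how far dim values can be trusted was not tested.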

Other observations

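Features whose number in the deposited table is next to that of a member, and that are not members, had a median difference of 0.06 on the normalised log2 scale, and 55.8% of these 190 features were higher in hcf145. Of the 2996 features that are neither members nor next to one, 44.2% were higher, with a median of -0.09. The sources used here do not say whether feature numbers follow positions on the array, and the difference was not tested.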
